A study of Mus musculus with 7 samples.

Results

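RNA of adult mouse hepatocytes was compared with RNA of mouse embryonic fibroblasts (MEF), using the 1 array titled Hepatocyte and the 3 arrays titled MEF, which are 4 of the 7 arrays of the series. Every probe that is not a control was read, and 41138 probes stood for 27577 genes or unnamed entries. Per the labels all cells came from the C57BL/6 background, the hepatocytes from adult liver with no age or sex stated, and each MEF sample was made on its own from embryos of 13.5 days post coitum. The labels name no altered gene and no added agent for either kind of cell. The other 3 arrays hold 3 types of induced hepatocyte-like (iHep) cells made from MEF. They entered here through the estimate of the spread, the choice of the probe that stands for a gene and the choice of genes tested.

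Hepatocytes are the epithelial cells that fill most of the liver. They secrete the bulk of plasma proteins and lipoproteins, make bile acids, dispose of ammonia as urea, store and release glucose, oxidise fatty acids and clear drugs and steroids. A small circle of transcription factors, among them the HNF4, FOXA and C/EBP families, keeps these genes on. Fibroblasts of the embryo are mesenchymal cells that divide in culture, build collagenous matrix, pull on it with actin and smooth muscle proteins and carry the positional code of the Hox genes.

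Total RNA of 0.5 µg per sample was labelled with the dye Cy3 and each sample was read on its own 1-colour Agilent array. A level is the log2 processed signal minus the 75th percentile of its array, so 0 marks that percentile and a level below it is not an absence. The 75th percentile of signal was 608 on the hepatocyte array and between 805 and 1484 on the MEF arrays, and 62.4% of probes were well above background on the hepatocyte array against 60.2% to 68.7% on the MEF arrays. MEF 2 and MEF 3 differed by 0.51 to 0.92 times the spread of repeated spots of a single array, whereas MEF 1 differed from MEF 2 by 3.86 to 4.54 times. These 2 arrays differed by less than the noise of repeated spots, so their mean entered as 1 sample, which leaves n = 2 for MEF and n = 1 for the hepatocyte. In the test, limma's moderated fit with Benjamini-Hochberg adjustment over all 19132 genes tested, the lone hepatocyte sample is assumed to vary like the MEF and iHep samples. What a p-value measures here is the spread among the arrays alone, which may be technical. The iHep arrays are 1 each of 3 types and enter as 1 group, so that spread includes differences between types. The hepatocyte array was also the only array on its slide, so slide and cell type cannot be told apart. MEF 1 shared a slide with the iHep arrays, and MEF 2 and MEF 3 shared another. Probe positions are those of the array annotation, build mm8; exons were not annotated.

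Of 19132 genes tested, 5428 (28.4%) were higher and 4801 (25.1%) were lower in the hepatocyte sample at an adjusted p under 0.05 by limma, which is 53.5% in either direction. Across the alternatives run this share was between 34.7% (no filter on dim probes, more genes tested) and 62.8% (the MEF arrays as 3 samples). The hepatocyte level lay above or below all 3 MEF arrays for 92.3% of genes tested, so lying outside the MEF range separates few genes from the rest. Among the 14432 genes well above background on all 4 arrays, 3716 were over 2-fold higher, 3569 were over 2-fold lower and 7147 (49.5%) were within 2-fold. Over 16-fold differences were found for 654 genes in the higher direction and 750 in the lower. For scale, MEF 1 was over 2-fold away from the mean of MEF 2 and MEF 3 in 767 of these genes, and MEF 2 was over 2-fold away from MEF 3 in 33. The direction of the bulk depends on the scaling. With arrays scaled to their E1A spike-in spots the median difference moved from 0.14 to -0.60, and 3276 genes were called higher against 7220 lower, so that 31.2% of calls were in the higher direction in place of 53.1%.

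**Figure D1:**
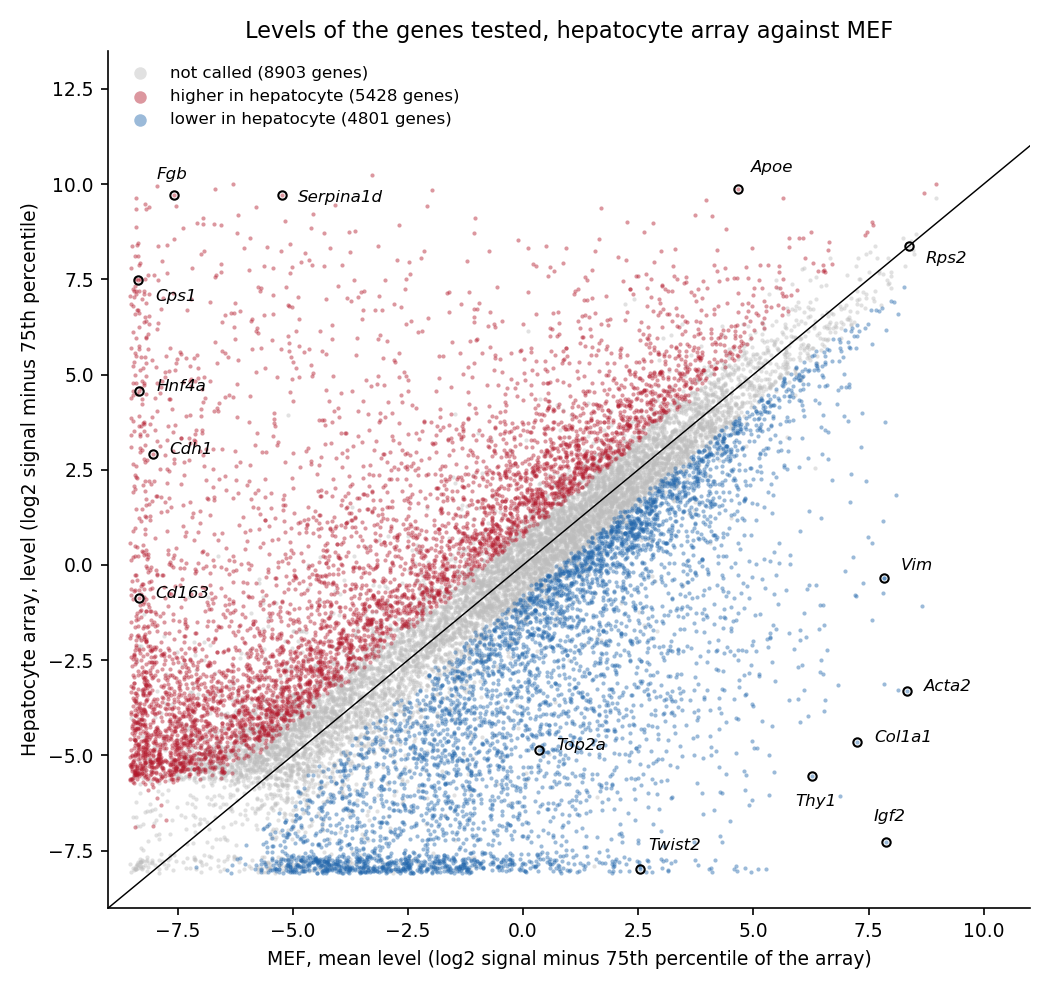
Level on the hepatocyte array (vertical axis) against the mean MEF level (horizontal axis), both as log2 signal minus the 75th percentile of the array, with 1 point per gene tested. Of these, 5428 genes called higher are red, 4801 called lower are blue and 8903 not called are grey; the line marks equal levels and the named genes are circled.

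Detection was counted without a test. On the hepatocyte array 17173 genes were well above background, and on all MEF arrays 16122. There were 1318 genes seen on the hepatocyte array and on no MEF array, and 1690 seen on every MEF array and not on the hepatocyte array. With 1 fixed level on all arrays in place of the flags these counts were 2167 and 1545, in the opposite order. A further 7220 were seen on none of the 4 arrays. Of the genes called higher, 1182 were seen on no MEF array, and 1172 of these were above background on the hepatocyte array. The rest, Grhl2 and Ltf among them, were below background on all 4 arrays and entered the test through the iHep arrays. Of those called lower, 1426 were not above background on the hepatocyte array.

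The labelled cell types were checked against their defining genes. All 9 hepatocyte markers on the array, among them Alb, Ttr, Apoa1, Apob, Fgb, Cps1, Cyp2e1 and Tat, were well above background on the hepatocyte array and were called higher, while 1 of them, Tat, was above background on any MEF array. Their summed signal was 3114 times the 75th percentile on the hepatocyte array and 0.141 to 0.158 times on the MEF arrays. Of 10 fibroblast markers (Col1a1, Col1a2, Col3a1, Pdgfra, Pdgfrb, Thy1, Dcn, Lum, Vim and Prrx1), 9 were called lower in the hepatocyte sample, and their summed signal was 12.6 there against 1066 to 1104 on the MEF arrays. The exception was Dcn, the small proteoglycan decorin, with levels of 6.07, 5.41 and 5.38 in MEF 1, 2 and 3 and 3.37 in the hepatocyte sample (adjusted p = 0.0702); it was called lower without the iHep arrays in the fit. Other probes of Prrx1, a mesenchymal homeobox gene, spread from -10.80 to 0.88 in their difference.

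**Figure D2:**
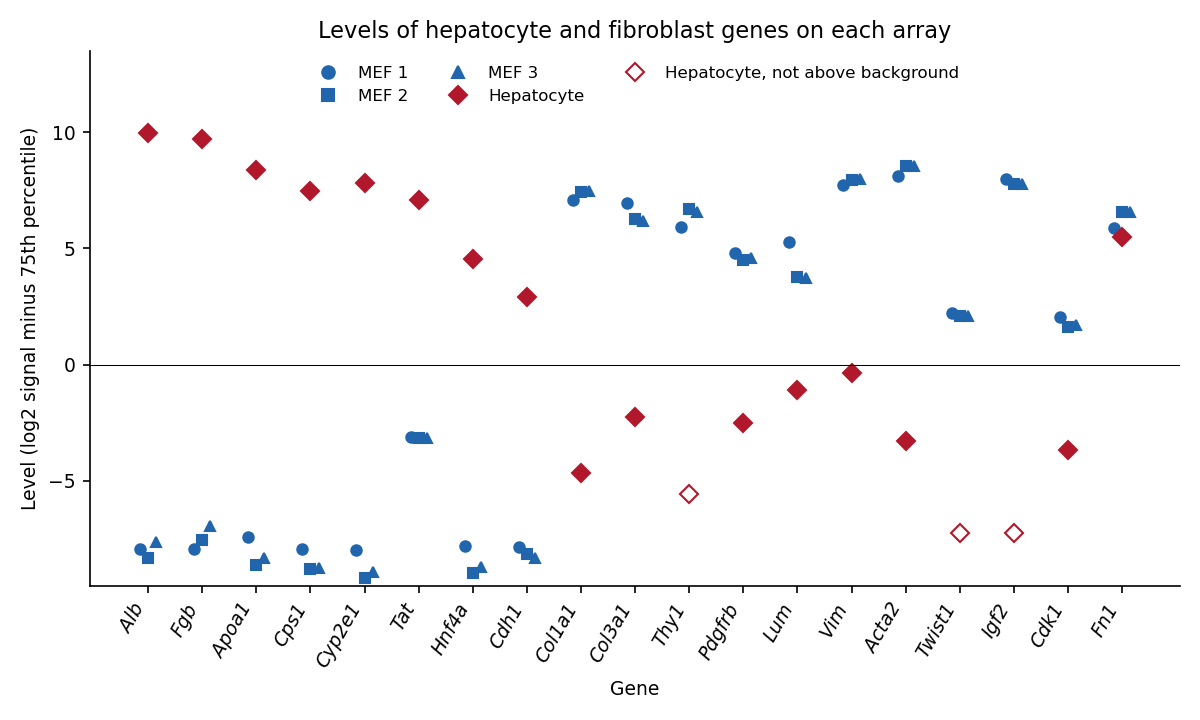
Level of 19 genes on MEF 1, 2 and 3 (blue circle, square and triangle) and on the hepatocyte array (red diamond, open where not well above background), as log2 signal minus the 75th percentile. The hepatocyte genes on the left lie far above all MEF arrays, the fibroblast and division genes lie far below them, and Fn1 on the right (5.47 against 5.86, 6.55 and 6.55) was not called.

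Plasma carriers were mostly higher. Of 29 carrier and hormone-binding plasma proteins tested, 27 were higher in the hepatocyte sample (93.1%, against 28.4% of all genes), 1 was lower, and the median difference was 11.39 on the log2 scale against 0.14 over all genes tested. Albumin (Alb), the main protein of plasma, had MEF levels of -7.92, -8.32 and -7.63, none above background, and a hepatocyte level of 9.95 on a saturated spot. It was at least 75850-fold higher (adjusted p = 0.00975), a bound set by the lowest signal called well above background on each MEF array; all values given as at least some fold are such bounds, set on the hepatocyte array for genes that were lower. Fetuin A (Ahsg), an inhibitor of mineral deposition, was at least 61000-fold higher, and transthyretin (Ttr), the carrier of thyroid hormone and retinol-binding protein, at least 3906-fold. Transferrin (Trf), the iron carrier, was measured on all arrays, at -2.46, -1.70 and -1.72 in MEF and 9.44 in the hepatocyte sample, 2940-fold higher (adjusted p = 0.00415). The fetal carrier Afp stood at -6.42, -4.79 and -4.91 in MEF and -0.85 in the hepatocyte sample and was not called (adjusted p = 0.121).

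The sequence before the start of Alb is shown because this gene is widely used as a hepatocyte marker. It is the RefSeq promoter window of build GRCm38.p6, chr5:90460620-90460869 on the plus strand, the 250 bases before the transcription start, with matches to the motifs searched in capitals.
Alb: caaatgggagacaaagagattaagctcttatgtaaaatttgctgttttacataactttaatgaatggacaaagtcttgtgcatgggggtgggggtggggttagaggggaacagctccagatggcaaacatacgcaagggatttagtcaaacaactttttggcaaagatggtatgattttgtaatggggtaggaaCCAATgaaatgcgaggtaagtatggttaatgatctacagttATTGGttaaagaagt
The capitals mark a CCAAT box 56 bases before the start and a CCAAT box on the minus strand (ATTGG) at 15 bases. CCAAT was found in 52.17% of 23 plasma carrier promoters and in 38.52% of all 12408 promoters of tested genes, searched on both strands in windows of 300 bases that run past the start. In 21 promoters of clotting genes the share was 23.81%. A match is a string of letters and not a measured binding site.

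The serpins, a family of protease inhibitors and chaperones, held 22 tested members, of which 16 were higher and 4 lower. Serpina1d, a mouse alpha-1-antitrypsin gene, had levels of -5.26, -5.20 and -5.24 in MEF and 9.71 in the hepatocyte sample. It was 31520-fold higher, the highest fold among genes above background on all 4 arrays (difference 14.94 ± 1.57, SE; adjusted p = 0.00167; probe at chromosome 12, 104164673 to 104164732). Serpina3m was 11850-fold higher and Serpina1b at least 36190-fold. These liver serpins belong to families of near-identical copies that 1 probe may not tell apart, and the same holds for the Mup, Cyp2c, Cyp2d, Cyp3a, Ugt2b and class I MHC genes named here. Among the serpins that were lower, Serpinh1, the collagen chaperone, stood at 7.20, 7.22 and 7.20 in MEF and -0.78 in the hepatocyte sample (253.7-fold lower).

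Blood clotting genes were almost all higher: 24 of 25 tested, with a median difference of 12.45 and none lower. The fibrinogen beta and gamma chains (Fgb, Fgg), precursors of fibrin, were at least 63870-fold and 52550-fold higher. Fgb levels were -7.92, -7.56 and -6.93 in MEF, all below detection, and 9.71 in the hepatocyte sample (difference 17.29 ± 0.53, SE; adjusted p = 0.000168). Prothrombin (F2), which becomes the enzyme that cuts fibrinogen, was at least 51760-fold higher. Pros1, the cofactor of protein C that other cells also make, was the member not called.

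In the complement list 20 of 24 tested were higher and 1 lower. The lectin Mbl2, which starts the lectin pathway, was at least 25670-fold higher, and the pore subunits C8a and C8b were at least 6350-fold and 3447-fold higher. Cfb, the factor B of the alternative pathway, rose from -4.49, -5.27 and -5.03 in MEF to 7.96 (7018-fold). C1qa and C1qb, chains of the first component made chiefly by macrophages, were not called: C1qa stood at -0.57, 0.06 and 0.04 in MEF and -1.21 in the hepatocyte sample. Masp1, a protease of the lectin pathway, was called lower by its brightest probe at 2.43-fold, but other probes of the gene differed by up to 9.57 in the opposite direction and the call was lost without MEF 1.

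Apolipoproteins, the protein coats of lipoproteins, followed the plasma carriers, with 21 of 24 tested higher and none lower. Apoa2 of high density lipoprotein was measured on all arrays, at -4.66, -4.42 and -4.49 in MEF and 9.22 in the hepatocyte sample, which is 14050-fold higher. Apoa1 and Apob, the scaffolds of high and low density lipoprotein, were at least 25220-fold and 13900-fold higher. Apoe had a high level in fibroblasts too, with 4.28, 5.06 and 5.06 in MEF against 9.87, and was 36.7-fold higher, a call lost without MEF 1 and with quantile or spike-in scaling. The lipase gene Lpl was not called, with a hepatocyte level of 0.52 against a MEF range of 0.45 to 1.43.

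Cytochrome P450 enzymes, which oxidise drugs and steroids, showed 43 of 50 tested members higher and 4 lower, with a median difference of 10.70. Cyp2e1, the enzyme that oxidises ethanol and acetone, was undetected in MEF (-7.97, -9.15 and -8.92) and stood at 7.80 in the hepatocyte sample, at least 17090-fold higher. Cyp3a11, a major drug oxidase, was detected on 2 of 3 MEF arrays and rose from -5.70, -5.60 and -5.26 to 8.35. Cyp1b1, the estrogen and aromatic hydrocarbon oxidase of mesenchymal tissue, went the other way, with 1.83, 2.62 and 2.51 in MEF and no signal above background in the hepatocyte sample (at least 248.2-fold lower). Promoters of 42 members held TATAAA in 21 cases and the HNF4 stretch CAAAGTCCA in 5 (11.90%), against 9.45% and 0.48% of all promoters of tested genes. None of 23 plasma carrier promoters and none of 21 promoters of clotting genes held the HNF4 stretch.

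Conjugating enzymes make drugs and hormones soluble for excretion. Of 48 tested, 43 were higher and 3 lower. The glucuronosyltransferases Ugt2b5 and Ugt2a3 were at least 9985-fold and 5265-fold higher. Every one of the 28 tested genes of bile acid synthesis and transport was higher. Cyp7a1, the rate-limiting enzyme of that synthesis, stood at -7.77, -7.29 and -8.0 in MEF, none detected, and at 0.28 in the hepatocyte sample, at least 92.7-fold higher. The uptake carrier Slc10a1 was at least 2651-fold higher, and Slco1b2, detected on 2 of 3 MEF arrays, rose from -4.99, -6.69 and -5.83 to 7.86.

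Among drug, anion and nutrient transporters 24 of 33 tested were higher and 5 lower. Slc38a3, which moves glutamine across the sinusoidal membrane, was 5860-fold higher and the water channel Aqp8 3923-fold. The members that fell were the carriers of growing cells: the amino acid carriers Slc7a11, Slc1a4, Slc1a5 and Slc7a5 and the lactate exporter Slc16a3.

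The urea cycle list was higher in full, 14 of 14. Carbamoyl phosphate synthetase (Cps1), the first step, was at least 13670-fold higher, ornithine transcarbamylase (Otc) at least 5597-fold and arginase (Arg1), the last step, 3878-fold, from -5.46, -4.33 and -4.32 in MEF to 7.03. The middle enzymes were present in fibroblasts as well. Ass1, which joins citrulline and aspartate, had MEF levels of 4.30, 4.16 and 4.08 and 8.27 in the hepatocyte sample, 16.7-fold higher. Glul, the glutamine synthetase that captures the remaining ammonia around central veins, rose from 0.44, 0.67 and 0.64 to 4.78 (18.8-fold).

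Amino acid catabolism changed nearly as one, with 45 of 47 tested higher and none lower (median difference 8.97). Betaine-homocysteine methyltransferase (Bhmt) and Ftcd of histidine breakdown were at least 14020-fold and 13620-fold higher. Tyrosine aminotransferase (Tat) was seen in MEF at -3.09, -3.15 and -3.17 and rose to 7.07, 1176-fold. Cdo1 and Acmsd were the members not called.

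Of 28 genes of glucose, fructose and glycogen handling, 24 were higher and 1 lower. Glucose-6-phosphatase (G6pc), which releases free glucose, stood at -5.06, -4.88 and -5.09 in MEF and 6.79 in the hepatocyte sample (3587-fold, difference 11.81 ± 0.24, SE). Glycogen synthase of liver (Gys2) was at least 8473-fold higher. The member that fell was Pck2, the mitochondrial partner of the gluconeogenic enzyme, from 4.23, 3.78 and 3.80 to -0.23 (18.9-fold).

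Many of these steps are served by 1 isozyme in liver and another in most other cells, and several pairs moved apart. All 17 tested members of the list drawn up as liver isozymes were higher, with a median difference of 8.65. Of 27 on the list of other cells 14 were lower, 4 higher and 9 not called. Cox7a1, counted on the first list with its lowest difference (2.50), is not a liver isozyme. Cox7a1 on the first list and Gapdh, Pgk1 and Tpi1 on the second have no partner on the other list. The totals are therefore not counts of pairs. The muscle and fetal type pyruvate kinase Pkm had levels of 4.91, 5.04 and 5.03 in MEF and -2.09 in the hepatocyte sample, 133.5-fold lower. Its liver partner Pklr rose from -7.41, -6.82 and -6.37, with 1 MEF array above background, to 1.42. Hexokinases Hk1 and Hk2, which trap glucose at low concentrations, were 51.6-fold and 68.6-fold lower. Gls2, which releases ammonia from glutamine, was 1107-fold higher. The methionine adenosyltransferase Mat1a was at least 7983-fold higher, and its partner Mat2a was 1.78-fold lower, a call lost without MEF 1. Pairing was not complete. Hmgcs1, an enzyme of sterol synthesis on the list of other cells, was higher (5.76, 5.88 and 5.88 against 7.09, 2.41-fold). Ldha, which has no partner on the liver list, was 2.21-fold higher. Both calls were lost without MEF 1 and with quantile or spike-in scaling. Gapdh was not called at 6.16, 6.30 and 6.30 against 6.54.

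**Figure D3:**
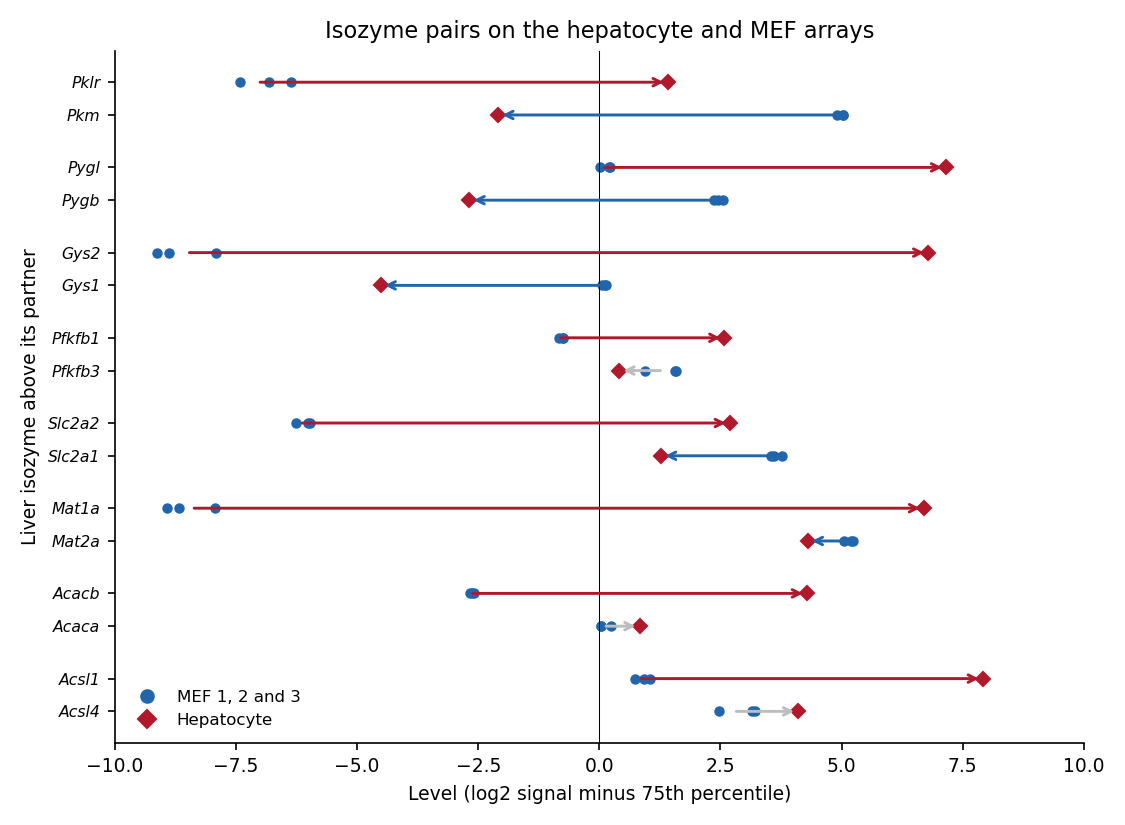
Levels of 8 isozyme pairs as log2 signal minus the 75th percentile, with the liver isozyme above its partner, MEF 1, 2 and 3 as blue circles, the hepatocyte array as a red diamond and an arrow from the MEF mean (red higher, blue lower, grey not called). All arrows of liver isozymes run to the right. Those of Pkm, Pygb, Gys1, Slc2a1 and Mat2a run to the left, as does that of Pfkfb3, which was not called.

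Fat oxidation and ketogenesis were higher in 41 of 42 tested genes, with a median difference of 3.56. Fabp1, the fatty acid carrier of the liver cell, was at least 50200-fold higher. Cpt1a, the gate of fatty acids into mitochondria, was measured in both cells and rose from 2.72, 2.38 and 2.37 to 4.90 (5.11-fold). Pdk4, a kinase that spares glucose, was the member not called (-0.76, -0.79 and -0.81 against -1.10). Fatty acid and sterol synthesis was split, with 25 of 40 higher, 4 lower and 11 not called, and 16 higher under the spike-in scaling. Scd1, the main hepatic desaturase, was 34.7-fold higher (2.95, 2.76 and 2.71 against 7.96), and its homologue Scd2 was 273.6-fold lower (6.37, 6.69 and 6.66 against -1.57).

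Retinoid, alcohol and aldehyde enzymes were higher in 28 of 36 tested and lower in 2, led by the carboxylesterases Ces1c and Ces3b, which were at least 55000-fold and 49460-fold higher. Of 31 genes of iron, heme and metals, 18 were higher and 3 lower (5 lower under the spike-in scaling, 1 without MEF 1). Hepcidin (Hamp), the peptide that limits iron export, was at least 5088-fold higher, and heme scavenger hemopexin (Hpx) was 2942-fold higher (-3.39, -2.90 and -2.88 against 8.38). Heme oxygenase (Hmox1), a stress-induced enzyme, was 11.5-fold lower, a call lost without MEF 1. Acute phase genes were higher in 21 of 26 and lower in 2. Orm1, an acid glycoprotein, was at least 3019-fold higher, while Saa3 and Socs3 were not called and Cebpd and Il1rn were lower, Il1rn not without MEF 1.

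The regulators of these genes were tested next. Of 33 hepatocyte transcription factors tested, 19 were higher, 1 lower and 13 not called, with a median difference of 2.25. Hnf4a stood at -7.82, -8.96 and -8.71 in MEF, none detected, and at 4.56 in the hepatocyte sample, at least 1799-fold higher (adjusted p = 0.00307; probe at chromosome 2, 163263779 to 163263838). Foxa3 was at least 295.0-fold higher. Cebpa was already measurable in fibroblasts, at -0.78, -1.46 and -1.44, and rose to 4.93 (66.2-fold). The pioneer factors Foxa1 and Foxa2 had wide errors and were not called: Foxa2 stood at -6.21, -3.91 and -4.09 against 3.94 (difference 9.04 ± 3.30, SE; adjusted p = 0.0694). Foxa1 was below background on all MEF arrays and at -0.84 in the hepatocyte sample (adjusted p = 0.0660). Both were called when the iHep arrays were left out of the fit. Nr2f1, an orphan receptor of mesenchyme, was the member that fell.

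Nuclear receptors that sense bile acids, drugs and fats showed 17 of 30 higher and 1 lower. The bile acid receptor Nr1h4, detected on 1 of 3 MEF arrays, rose from -7.77, -6.29 and -7.10 to 4.82, a call lost without MEF 1. The drug sensors Nr1i2 and Nr1i3 rose to 3.20 and 2.63. Ppara, the switch of fat oxidation, was 297.6-fold higher (-4.12, -4.71 and -4.72 against 3.80). Rxrb, Nr1h2 and Thra were among the 12 not called.

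Hepatocytes divide tasks along the liver lobule, from the portal vein to the central vein. Periportal genes were higher in 19 of 21 tested and pericentral genes in 18 of 24, with none lower in either list. Periportal examples are Cps1 and Etnppl (at least 6479-fold), and pericentral examples are Cyp2e1 and Cyp2c29 (at least 9075-fold) besides Glul. The Wnt target genes Axin2 and Lgr5, which mark the pericentral rim, were not called: Lgr5 stood at 0.81, -0.77 and -0.66 in MEF and -1.29 in the hepatocyte sample. Cyp2f2, a periportal oxidase, had uneven MEF levels of -1.09, -4.21 and -4.39 against 8.91, and its call was lost without MEF 1.

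Genes with a sex bias in mouse liver were high on both sides. Of 20 genes known to be higher in males, 19 were higher in the hepatocyte sample than in MEF, among them Mup4 (-4.18, -5.07 and -5.00 against 8.86) and the steroid enzyme Hsd3b5 (at least 3058-fold). Of 19 tested genes known to be higher in females, 15 were higher, led by Cyp3a44, Cyp2c40, Cyp3a41a and Cyp3a16, all members of families with near-identical copies. The Y-linked genes Ddx3y, Eif2s3y, Uty and Kdm5d were above background on all 4 arrays, with Ddx3y at 0.06, -0.45 and -0.40 in MEF and 2.64 in the hepatocyte sample. Xist, the RNA of the silenced X chromosome, stood at 1.26, 1.78 and 1.87 in MEF and was below background in the hepatocyte sample. None of the 5 was called (adjusted p = 0.179 for Xist and 0.124 for Ddx3y); all 5 were called when the iHep arrays were left out of the fit.

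Clock genes were higher in 11 of 19 tested and lower in none, and 7 were higher without MEF 1 or under the spike-in scaling. The output factor Hlf rose from -3.15, -4.60 and -4.35 to 1.52 (40.5-fold), and Per2, a repressor in the clock loop, from -4.43, -4.10 and -4.03 to -0.96 (9.80-fold). Arntl, its activator, was not called (0.94, 1.14 and 1.14 against 0.12). The sources used here state no hour of sampling.

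**Figure D4:**
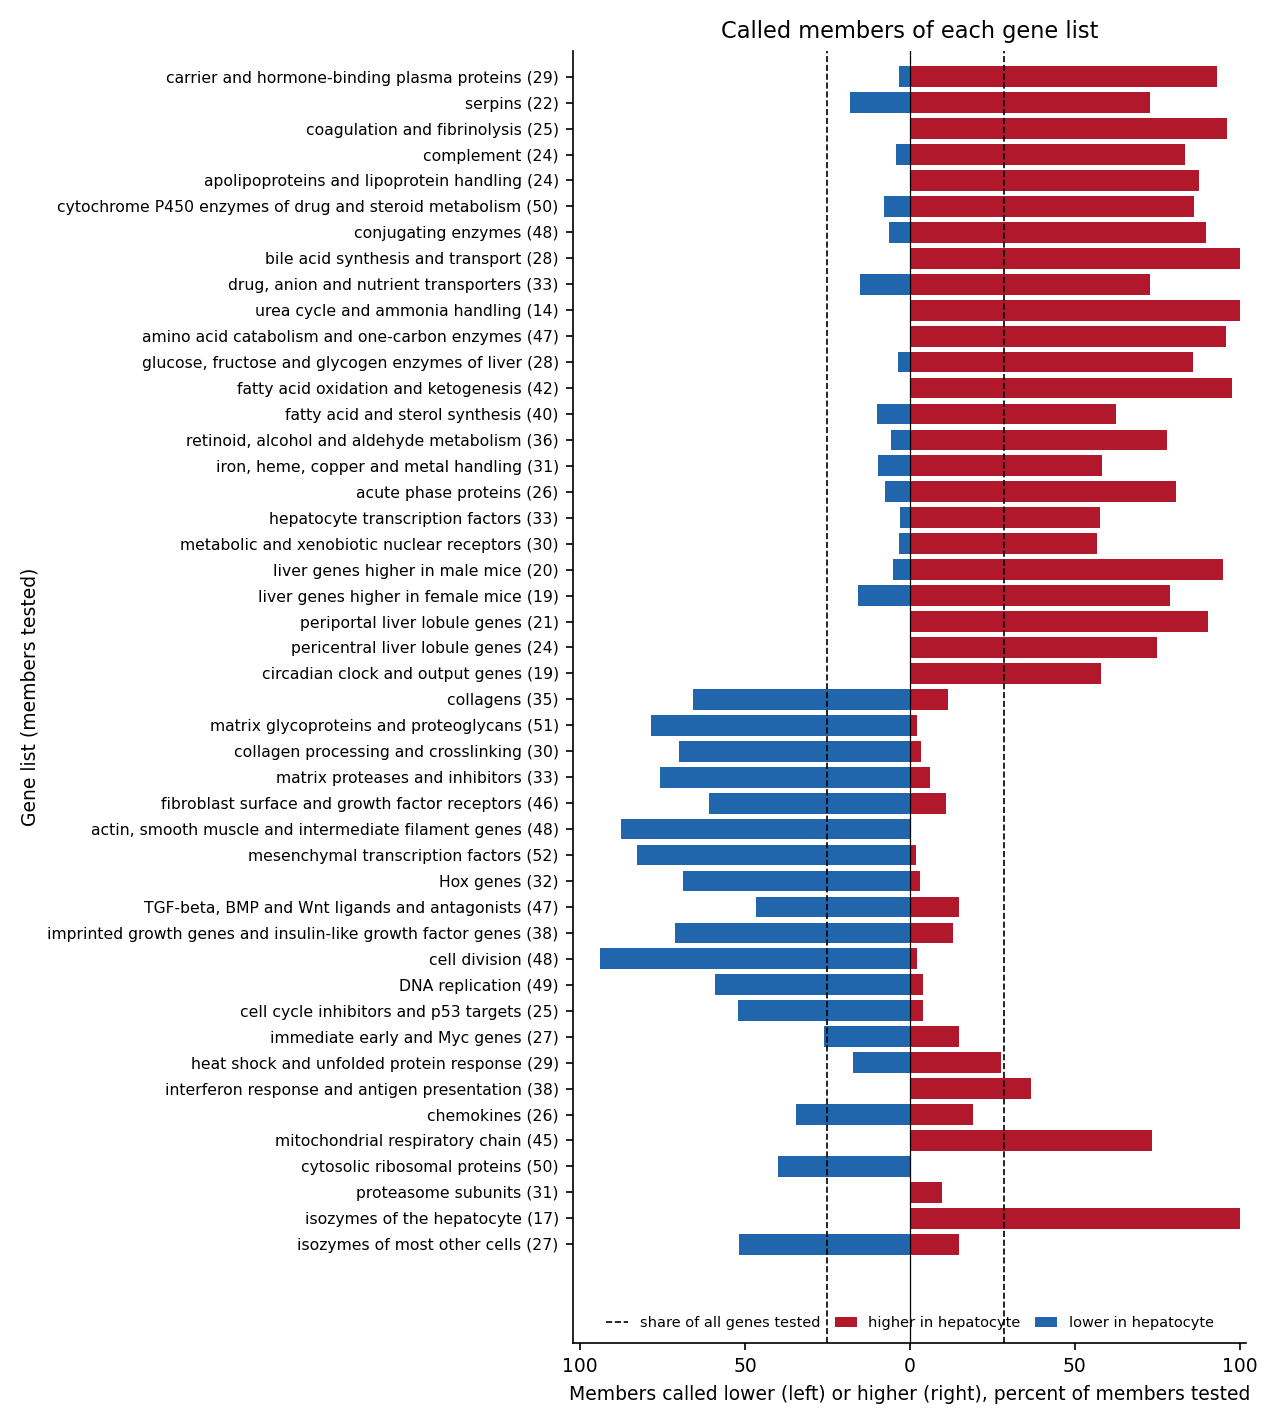
Share of tested members called higher (red, right) or lower (blue, left) in the hepatocyte sample for each gene list, in percent, with the number tested in brackets. Dashed lines mark the shares over all genes tested, 28.4% higher and 25.1% lower; the hepatocyte lists pass the right line and the fibroblast and division lists pass the left line.

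Matrix genes were mostly lower. Of 35 collagen genes tested, 23 were lower in the hepatocyte sample (65.7%, against 25.1% of all genes), 4 higher and 8 not called, with a median difference of -4.94. Col1a1, a chain of the main fibrillar collagen, stood at 7.09, 7.42 and 7.45 in MEF and -4.64 in the hepatocyte sample, 3812-fold lower (difference -11.90 ± 0.65, SE; adjusted p = 0.000324), the lowest difference among genes above background on all 4 arrays. Col1a2 and Col3a1, its fibril partners, were 854.9-fold and 454.9-fold lower. The exceptions were Col4a6, whose other probes were lower and which was lower with the mean of its probes, Col13a1, Col15a1 and Col18a1. Col18a1, a basement membrane collagen and source of endostatin, had 2.78, 1.73 and 1.66 in MEF and 8.02 in the hepatocyte sample, 55.0-fold higher, and a second probe differed by 5.82.

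Other matrix lists matched the collagens in direction. Matrix glycoproteins and proteoglycans were lower in 40 of 51 tested and higher in 1, with a median of -6.38. Thrombospondin 1 (Thbs1) and tenascin C (Tnc), which loosen cell attachment, were at least 1330-fold and 894.4-fold lower. Fn1, fibronectin, which hepatocytes also secrete into plasma, was not called (5.86, 6.55 and 6.55 against 5.47; adjusted p = 0.437). Genes that process or crosslink collagen were lower in 21 of 30 and higher in 1, with lysyl oxidase (Lox) at least 1534-fold lower, from 4.82, 4.88 and 4.79 to below background. Matrix proteases and inhibitors were lower in 25 of 33 and higher in 2. The gelatinase Mmp2 was 908.6-fold lower, and the lysosomal protease Ctsl was not called at 7.14, 7.41 and 7.38 against 8.07.

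Surface proteins and receptors were lower in 28 of 46, higher in 5 and not called in 13. Thy1, a fibroblast surface glycoprotein, stood at 5.92, 6.68 and 6.58 in MEF and below background in the hepatocyte sample, at least 3625-fold lower. The receptors for platelet-derived growth factor Pdgfra and Pdgfrb were 85.0-fold and 144.2-fold lower. The members that rose were receptors known from hepatocytes: Egfr and Met, the receptors for epidermal and hepatocyte growth factor, were 10.7-fold and 11.1-fold higher, and Lifr, a receptor of the interleukin 6 family, 149.0-fold. N-cadherin (Cdh2), an adhesion protein of mesenchyme and of liver, was not called (-0.23, 0.35 and 0.35 against 0.96).

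Contractile and filament genes showed no member higher and 42 of 48 lower. Acta2, smooth muscle actin, stood at 8.11, 8.56 and 8.56 in MEF and -3.30 in the hepatocyte sample (3185-fold lower). S100a6 and S100a4, small calcium-binding proteins, were 2738-fold and 1989-fold lower, and vimentin (Vim), the filament of mesenchymal cells, 290.3-fold (7.73, 7.94 and 7.97 against -0.34). Actb, cytoplasmic actin, was among the 6 not called, and its 2 probes went opposite ways.

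Among mesenchymal transcription factors 43 of 52 tested were lower and 1 higher. Twist2 and Prrx2, regulators of connective tissue and limb mesenchyme, were at least 316.5-fold and 1358-fold lower. Twist1 stood at 2.21, 2.11 and 2.07 in MEF and below background in the hepatocyte sample. Snai2 and Zeb1, repressors of E-cadherin, were 8.01-fold and 4.28-fold lower (Zeb1 not called without MEF 1), and both remained above background. The member that rose was Tcf21, a factor of stellate cells in liver, from below background on all MEF arrays to -4.54. Of 32 Hox genes tested 22 were lower and 1 higher. Hoxa11, a limb patterning gene, stood at 2.35, 1.63 and 1.58 in MEF and below background in the hepatocyte sample (at least 212.8-fold lower), while Hoxc5 rose from -3.22, -1.95 and -1.94 to -0.10. Hoxd13, at 2.85, 0.38 and 0.33 in MEF, was not called.

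Secreted signals of the TGF-beta, BMP and Wnt families were lower in 22 of 47 and higher in 7. Grem1, a BMP antagonist, fell from 2.97, 2.94 and 3.06 to below background (at least 428.4-fold), and Fstl1, a follistatin-like protein, was 1327-fold lower. Those that rose included Inhbc and Inhbe, activin chains made in liver; Inhbc was at least 333.1-fold higher. Imprinted and insulin-like growth factor genes were lower in 27 of 38 and higher in 5. Igf2, the fetal growth factor, stood at 7.98, 7.78 and 7.77 in MEF and -7.26, below background, in the hepatocyte sample, at least 12750-fold lower (difference -15.14 ± 0.24, SE; adjusted p = 0.000168; probe at chromosome 7, 142460185 to 142460245). H19, its imprinted neighbour, was 1140-fold lower. Igf1, the adult growth factor secreted by liver, was the mirror image, from 1.07, 1.67 and 1.59 to 6.57 (37.2-fold higher), a call lost without MEF 1 and with quantile or spike-in scaling. Receptors followed: Igf1r was 72.2-fold lower and Insr, the insulin receptor, 12.3-fold higher. Igfbp1, a binding protein induced by fasting, rose to 7.01 from levels detected on 1 of 3 MEF arrays.

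Cell division genes were lower in 45 of 48 tested, with 1 higher and a median difference of -4.63. Cdk1, the kinase that drives entry into mitosis, stood at 2.03, 1.64 and 1.72 in MEF and -3.67 in the hepatocyte sample, 46.1-fold lower. Top2a, which untangles chromosomes, was 36.8-fold lower (0.40, 0.27 and 0.33 against -4.85), and Mki67, the proliferation marker, 20.7-fold. Ccnd2, a D cyclin, was 210.3-fold lower. Pttg1, securin, was the member that rose, from 2.74, 2.87 and 2.87 to 4.58 (3.41-fold).

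The promoters of Top2a and Cdk1 are shown because a larger share of promoters of this list than of all promoters held the CCAAT box. They are RefSeq windows of GRCm38.p6, chr11:99024190-99024439 and chr10:69352913-69353162, both on the minus strand, with capitals for the CCAAT box (CCAAT, or ATTGG on the minus strand of the gene) and the GC box (GGGCGG, or CCGCCC).
Top2a: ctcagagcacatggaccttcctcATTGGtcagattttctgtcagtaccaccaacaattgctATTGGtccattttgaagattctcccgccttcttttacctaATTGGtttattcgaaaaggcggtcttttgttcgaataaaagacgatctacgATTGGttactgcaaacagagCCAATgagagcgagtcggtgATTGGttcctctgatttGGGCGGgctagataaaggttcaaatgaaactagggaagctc
Cdk1: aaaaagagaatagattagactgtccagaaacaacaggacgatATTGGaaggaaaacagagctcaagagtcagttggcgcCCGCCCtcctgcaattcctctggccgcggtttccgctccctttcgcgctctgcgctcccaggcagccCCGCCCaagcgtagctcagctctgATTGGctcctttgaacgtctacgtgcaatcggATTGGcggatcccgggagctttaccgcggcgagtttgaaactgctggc
CCAAT was found in 72.97% of 37 promoters of cell division genes and in 62.50% of 40 of DNA replication genes, against 38.52% of all 12408. The GC box was found in 83.78%, 72.50% and 58.61%. The E2F stretch TTCCCGCC was in 20.00% of replication promoters, in none of the cell division promoters and in 3.66% of all.

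Of 49 DNA replication genes tested 29 were lower, 2 higher and 18 not called (median -1.64). Uhrf1, which carries DNA methylation through replication, was 54.9-fold lower, and Mcm2 to Mcm7 of the replicative helicase were all lower, Mcm7 by 3.11-fold (3.64, 3.37 and 3.38 against 1.87). Among the higher genes was Mcm10, a helicase loading factor, which stood at 0.90, 0.89 and 0.89 in MEF and 5.42 in the hepatocyte sample (23-fold higher). Mcm10 rests on 1 probe. Inhibitors of the cell cycle and targets of p53 were also lower, in 13 of 25, with 1 higher. Cdkn1a and Cdkn2a, the brakes p21 and p16, fell with the division genes, Cdkn1a 169.0-fold from 3.72, 4.14 and 4.15 to -3.46. Trp53 itself was not called.

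General machinery differed by small amounts that depend on the scaling. Respiratory chain genes were higher in 33 of 45 and lower in none (median 1.46), but the count was 8 with quantile normalization, 5 with the spike-in scaling and 10 without MEF 1. Uqcrfs1 of complex III rose from 3.52, 3.98 and 4.04 to 6.40 (6.21-fold), and Sdha of complex II was 4.39-fold higher. Ribosomal protein genes were lower in 20 of 50 and higher in none (median -0.68), with 50 lower under quantile normalization, 44 under the spike-in scaling and 5 without MEF 1. Rps19 was 4.01-fold lower (6.35, 6.34 and 6.33 against 4.34). Proteasome genes were higher in 3 of 31, below the 28.4% of all genes, and in none under either of those scalings, where 3 and 7 were lower, and in none without MEF 1.

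Stress, early response and immune lists were mixed. Heat shock and unfolded protein genes were higher in 8 of 29 and lower in 5, close to the background shares, and in 1 and 12 under the spike-in scaling; without MEF 1 the count of higher genes was 3. Herpud1, an endoplasmic reticulum stress protein, was 9.25-fold higher, and Ddit3 and Asns, targets of the amino acid response, were 16.3-fold and 13.1-fold lower. Of 27 immediate early and Myc genes 4 were higher (14.8%, against 28.4% of all genes) and 7 lower (25.9%, close to the 25.1% of all genes). The count of higher genes was 1 under the spike-in scaling and 2 without MEF 1. Zfp36, which destabilises cytokine messages, rose from -0.71, -0.08 and -0.08 to 3.71, and Myc was lower. Fos and Egr1, which dissociation of tissue can induce, were not called (Fos at -1.34, -1.64 and -1.61 against 2.15, adjusted p = 0.0708), and their part in these levels was not tested. Interferon and antigen presentation genes were higher in 14 of 38 (36.8%, against 28.4% of all genes, and 12 under the spike-in scaling). None was lower, and 1 was under the spike-in scaling. The class I genes H2-K1 and H2-Q10 were 31.9-fold and 38.1-fold higher, while Ifit1 was not called. Chemokines were higher in 5 of 26 (19.2%, against 28.4% of all genes, and 3 without MEF 1) and lower in 9 (34.6%, against 25.1%). Cxcl9 was at least 80.5-fold higher and Ccl2 93.2-fold lower (2.75, 3.67 and 3.74 against -3.31).

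Epithelial cells are bound to each other by junctions and held by keratins. Of 48 junction and keratin genes tested, 31 were higher and 2 lower. Grhl2 was among those called higher, though below background on every MEF array and on the hepatocyte array. E-cadherin (Cdh1) was undetected in MEF (-7.85, -8.16 and -8.30) and stood at 2.91, at least 574.6-fold higher. The keratins Krt8 and Krt18, the keratin pair of hepatocytes, rose 463.4-fold and 66.2-fold, from MEF levels that were higher in MEF 2 and 3 than in MEF 1 (Krt8 at -3.54, -1.56 and -1.50 against 6.32). Gap junctions changed type: Gjb1 was 250.3-fold higher and Gja1 at least 108.3-fold lower. Krt19, a keratin of bile ducts, was 26.9-fold lower.

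Markers of other liver cells were read on the hepatocyte array. In a bulk sample, fewer cells of a type and less RNA per cell cannot be told apart. Of 30 endothelial and sinusoid markers, all 30 were above background on the hepatocyte array, 18 were called higher and 1 lower, and their summed signal was 44.95 times the 75th percentile against 9.84 to 13.6 on the MEF arrays. Dnase1l3, Clec4g, Gpr182 and Robo4 led them: Dnase1l3 was undetected in MEF and stood at 0.72 (at least 126.0-fold), and the pan-endothelial Cdh5 rose from below background to 0.02. Of 30 Kupffer cell and macrophage markers 28 were above background on the hepatocyte array and 24 to 26 on the MEF arrays. Of the 28 tested, 7 were called higher, 25% against 28.4% of all genes, and 4 lower, with 11 lower under the spike-in scaling and 2 without MEF 1. Clec4f, a lectin of Kupffer cells, stood at 1.46 against -7.73, -8.94 and -8.69 (at least 211.1-fold higher), and Cd163, Vsig4 and Timd4 were also higher. Cd68, a lysosomal protein of macrophages, was 9.47-fold lower (-0.03, 0.30 and 0.26 against -3.12). The signalling adaptors Tyrobp and Fcer1g were 3.08-fold and 2.03-fold lower, calls lost without MEF 1. The wider macrophage genes Adgre1, Csf1r and Ptprc were above background on all 4 arrays and not called, and the summed signal of the list was 36.8 against 97.3 to 150.5, with Lyz2 at 2.54 against 6.02, 6.66 and 6.67.

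Stellate cell markers were higher in 6 of 22 (27.3%, against 28.4% of all genes) and lower in 6 (27.3%, against 25.1%). Their summed signal was 33.9 against 138.2 to 157.0. Lrat, which stores vitamin A as ester, was at least 17.4-fold higher, and Colec11 47.4-fold. Pdgfrb and desmin (Des), which fibroblasts share, were 144.2-fold and 26.6-fold lower. Bile duct markers were higher in 9 of 23 (39.1%, against 28.4% of all genes, and 4 under the spike-in scaling or without MEF 1). They were lower in 5 (21.7%, against 25.1% of all genes), with sums of 257.4 against 271.7 to 341.7. Different genes made up these sums. Spp1 held most of the MEF sums, at 8.27, 7.94 and 7.95, and was 76.8-fold lower in the hepatocyte sample, at 1.84. The highest levels among those that rose belonged to Krt8 and Krt18, which hepatocytes share. Epcam stood at -4.03, and its call was lost without MEF 1. Erythroid markers were higher in 7 of 12 (58.3%, against 28.4% of all genes, with 3 under the spike-in scaling and 4 without MEF 1). Their sum was 24.3 against 1.1 to 1.38, nearly all from Alas2 (4.52), while Hba-a1 stood at -2.40 against -5.87, -5.69 and -5.73. Lymphocyte and neutrophil markers summed to 1.82 against 61.0 to 103.2, where Thy1 made up nearly all of the MEF sum, and Cd3e and Ighm were among the 8 of 16 called higher (4 under the spike-in scaling). The part of these cells in the levels of complement, chemokine, interferon, stellate and matrix genes was not tested.

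**Figure D5:**
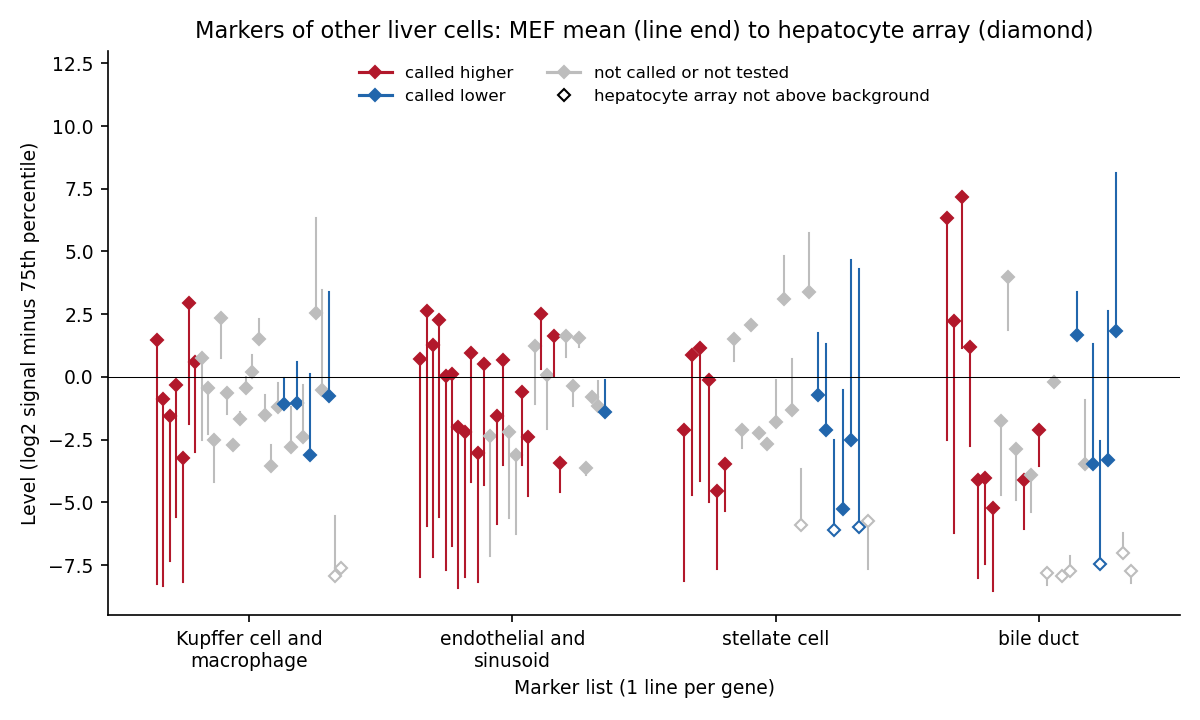
Markers of 4 other liver cell types, 1 line per gene from the mean MEF level to the level on the hepatocyte array (diamond, open where not well above background), as log2 signal minus the 75th percentile. Markers called higher are red, lower blue, others grey; Clec4f, first in the Kupffer list, ends at 1.46, and Dnase1l3, first in the endothelial list, ends at 0.72.

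Markers of other tissues were read as well. Muscle markers were lower in 9 of 20 tested and higher in 3, with the cardiac and skeletal actins Actc1 and Acta1 at 5.65, 6.48 and 6.46 and at 3.84, 4.73 and 4.72 in MEF; Actc1 was 411.8-fold lower in the hepatocyte sample. Neural and neural crest markers were lower in 11 of 21 (52.4%, against 25.1% of all genes) and higher in 3 (14.3%, against 28.4%). Adipocyte, bone and cartilage markers were lower in 5 of 18 (27.8%, close to the 25.1% of all genes). They were higher in 8 (44.4%, against 28.4% of all genes), and in 4 under the spike-in scaling and 5 without MEF 1. Runx2, the bone factor, was at least 57.2-fold lower, and Alpl, an alkaline phosphatase of bone and liver, was 106.9-fold higher. Of 12 pluripotency genes tested 4 were lower (33.3%, against 25.1% of all genes), among them Klf4 and Klf5. The member that was higher, Tfcp2l1, was not called without MEF 1.

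Base composition around the transcription start was read for each group of genes. RefSeq windows were matched for 12408 of the 19132 genes tested. The observed over expected ratio of CpG had a median of 0.72 over these, 0.56 for 3218 genes called higher, 0.74 for 3345 called lower and 0.76 for 5845 not called. In the 578 genes called higher that were seen on the hepatocyte array and on no MEF array the median was 0.22 and the GC share 49.7%, against 59.7% over all. For the 918 called lower that were seen on every MEF array and not on the hepatocyte array it was 0.63. Among the 2248 called higher that were detected in both cells it was 0.70, close to that of all genes. TATAAA was in 20.24% of the windows of the 578 genes and in 9.45% of all, and the GC box in 19.90% and 58.61%. Medians by list ran from 0.15 for P450 genes and 0.19 for plasma carriers to 0.54 for collagens and 0.87 for cell division. These are shares of letters in windows, with no test.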

How the data were processed

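RNA of 7 samples was read on 1-colour Agilent mouse arrays; the hepatocyte array and the 3 MEF arrays are compared here. Per the file headers, the authors scanned the arrays and extracted processed intensities, already corrected for background, with Agilent Feature Extraction 9.5.1.1, together with flags for well above background and saturation. Their deposited value table holds linear intensity with a median of 66.32 to 66.41 per array, and its log2 values had r = 0.9988 to 0.9999 across probes with the scanner values of the same arrays; its method is not stated in the labels.

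Control spots and outlier flags were left out, repeated spots averaged, and log2 intensity taken minus the 75th percentile of each array. Probes were named through RefSeq by accession (24479 probes), symbol (6225) or synonym (2382), or kept the file's name (7791); 261 had none. The probe with the highest mean level over all arrays of the series stood for a gene. Genes well above background on the hepatocyte array or on all arrays of another group were tested with limma 3.58.1 in R 4.3.3 over MEF, iHep and hepatocyte samples, with Benjamini-Hochberg adjustment at 0.05; the scripts were tested on simulated data. The residual degrees of freedom were 3. Summaries used python 3.11.15 and pandas 2.3.3.

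Genes named are the 12 highest and 12 lowest differences measured on all arrays, the 12 highest bounds in each direction, the 4 largest called changes of each list, fixed anchor genes and members not called; others, among them every exception of a list, were chosen after their values were seen. The members and lists were chosen with earlier results of these data known. Alternatives covered scaling, background correction, the dim-probe filter, the probe rule, the value table, the slide block and leaving out arrays. Some members of the lists, though counted, are not reported here by name.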

Additional observations from a re-analysis of the deposited data

How the results depend on the processing

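With E1A spike-in scaling 3276 genes were higher and 7220 lower, and with only genes well above background on the hepatocyte and all MEF arrays 3610 were higher. Over the other alternatives the counts stayed within 1.5 times of 5428 higher and 4801 lower, from 3868 and 3582 without MEF 1 to 6334 and 5686 with the MEF arrays as 3 samples. The median difference, 0.145, was -0.002 with quantile normalization and with the authors' table, -0.602 with the spike-in scaling, 0.169 with normexp, 0.413 without a filter, 0.014 with the filter on both sides and 0.211 with the mean of all probes. Leaving out 1 array gave 0.129 to 0.146. Detection on the hepatocyte array and no MEF array was 2167 genes with a fixed level in place of 1318, and on every MEF array and not the hepatocyte array 1545 in place of 1690. With the mean of all probes of a gene the differences of Col4a6 and Masp1 reversed, to -1.58 and 4.06, where the brightest probe goes against the others; no other called gene named here changed sign. Of 351 genes followed, 29 lost their call without MEF 1, among them Apoe, Igf1, Nr1h4, Cyp2f2, Zeb1, Hmgcs1 and Ldha, and 13 did with the spike-in scaling and 13 with normexp; the cause was not tested. No paired analysis was possible because the hepatocyte group has 1 array. Signal over background limits genes seen in 1 cell type to a bound, and the number of arrays limits precision.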

Other observations

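MEF 1 differed from MEF 2 and MEF 3, and was read on another slide, so the sample and the slide cannot be told apart. Among genes measured on all 4 arrays, 767 were over 2-fold apart between MEF 1 and the mean of MEF 2 and MEF 3. Saa3, an acute phase gene, stood at -1.82, -5.47 and -5.72 in MEF 1, 2 and 3, and the limb gene Hoxd13 at 2.85, 0.38 and 0.33.

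Probes of the same gene did not always move together. For Masp1 the brightest probe differed by -1.28 and the others by 0.10 to 9.57; for Ptprc, a leukocyte surface phosphatase, the brightest differed by 0.10 and the others by -0.09 to 4.91. Fold changes of these genes therefore depend on the probe read.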
